A study of Apis mellifera ligustica with 11 samples.

Results

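Microtubules carry cargo along the axons and dendrites of nerve cells, and this account describes the genes that build, modify, sever and walk along them in honeybee brain around exposure to fluvalinate, a pyrethroid miticide given to bee colonies. Genes were taken as members where the deposited description held the word tubulin, kinesin, dynein, dynactin, microtubule-associated, stathmin, katanin or spastin, or where the symbol was LOC725131, the gene named futsch. This gave 137 of 9974 rows. Of the words, stathmin matched 0 rows.

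The 11 libraries were made from brains of Apis mellifera ligustica, the Italian honeybee. There were 3 libraries from 1 day before exposure, 2 from day 10 (replicates 2 and 3), 3 from day 20 and 3 from day 30 after exposure. The bees of the exposed groups received fluvalinate at the normal dosage, with mite treatment added every 7 days. The royal jelly glands and the pigments were taken off each brain before extraction. The labels describe a control set and a test set with 3 replicates in each group, and the control-titled libraries all date from before exposure, so that exposure, time, age of the bees and set cannot be told apart. The age of the bees and the number of brains in a library are not stated in the labels. Whether replicates came from separate colonies is not stated either, and the p-values then reflect only how far these libraries spread, which may be technical. Values are FPKM, fragments scaled by the length of the transcript and by the mapped fragments of the library, and the deposited table rounds them to 2 decimals.

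A microtubule is a hollow filament of paired alpha- and beta-tubulin. Most kinesins walk towards its growing plus end, which in an axon points away from the cell body, and cytoplasmic dynein, with its adaptor complex dynactin, walks towards the minus end. Microtubule-associated proteins bundle and stabilise the filament, polyglutamylases decorate tubulin tails, and spastin and katanin sever it. Axonemal dyneins are the motors of moving cilia and sperm tails.

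Several features of the libraries moved together with the day and bear on each result. Major royal jelly protein genes (Mrjp1 to Mrjp7, products of the hypopharyngeal gland of the head) were detected for 7 of 7 genes with none at 0, and their summed FPKM ranged from 94231 to 126260 at day 10, from 44155 to 85199 at day 20 and from 4234 to 36823 at day 30, against 4662 to 12863 before exposure. Their share of the summed FPKM was 27% and 23.9% at day 10, against 1.76%, 4.42% and 2.39% before exposure. A list of 7 neuron marker genes, none at 0, summed to 207 to 303 FPKM at day 10, 387 to 435 at day 20 and 405 to 527 at day 30, against 482 to 527 before exposure. Within it ELAV-like protein 2 had 19.67 and 35.91 FPKM at day 10, against 71.34 to 86.15 before exposure. Bruchpilot had 8.81 and 13.85 FPKM, against 30.35 to 35.71. In choline O-acetyltransferase and LOC726584 (syntaxin-1A) these groups overlapped. The 6 glia markers summed to 1648 to 2105 FPKM at day 10, 2566 to 3109 at day 20 and 2118 to 3078 at day 30, against 2191 to 2991 before exposure. The 5 photoreceptor markers, none at 0, summed to 236 to 421 FPKM before exposure, 413 to 520 at day 10, 447 to 1293 at day 20 and 652 to 862 at day 30. The 23 muscle genes summed to 492 to 638 FPKM before exposure, 452 to 620 at day 10, 321 to 415 at day 20 and 308 to 468 at day 30. The part of gland RNA and of cell makeup in the results below was not tested. In bulk tissue fewer cells of a type and less RNA per cell cannot be told apart. Day 10 replicate 2 was the lowest of the 11 libraries in 43 of the 80 members tested (53.8%), against 39.8% of all genes tested, and day 30 replicate 1 was the highest in 39 members (48.8%), against 39% of all genes.

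The members spanned a wide range of levels, from the main tubulins to axonemal dyneins close to 0 FPKM. Over the 11 libraries 80 of the 137 members had a mean of at least 1 FPKM and were tested, 36 reached 10 FPKM and 7 reached 100 FPKM. The other 57 lay below 1 FPKM, 12 of them below 0.1 FPKM. No member was listed at 0 in every library, and 18 were at 0 in at least 1. Tubulin led the list, as LOC408388 (tubulin alpha-1 chain) averaged 835 FPKM and LOC408782 (tubulin beta-1) 786 FPKM. A second alpha-1 chain gene, LOC550827, averaged 268 FPKM, while the other 5 alpha-tubulin and 4 beta-tubulin genes stayed below 10 FPKM. The most abundant motor gene was LOC413837 (kinesin 3B), at a mean of 296 FPKM, above LOC411769 (kinesin heavy chain, the motor subunit of conventional kinesin) at 82.8 FPKM.

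Among dynein genes LOC725312 (dynein light chain D) averaged 129 FPKM and LOC725068, the cytoplasmic heavy chain that carries the motor domain, 93.1 FPKM. Both kinesin partners of high level, LOC410101 (trafficking kinesin-binding protein milt) and LOC726991 (kinesin light chain), averaged 112 FPKM. The 5 dynactin subunits lay between 6.84 and 19.1 FPKM. Of 38 axonemal and ciliary dynein genes, 30 were under 1 FPKM and the highest, LOC411197 (dynein light chain 1, axonemal), averaged 5.23 FPKM. The 3 genes of cytoplasmic dynein 2, which runs inside cilia, were all under 1 FPKM, between 0.0118 and 0.384 FPKM. Levels of different genes are compared on the FPKM scale, which divides by transcript length.

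**Figure D1:**
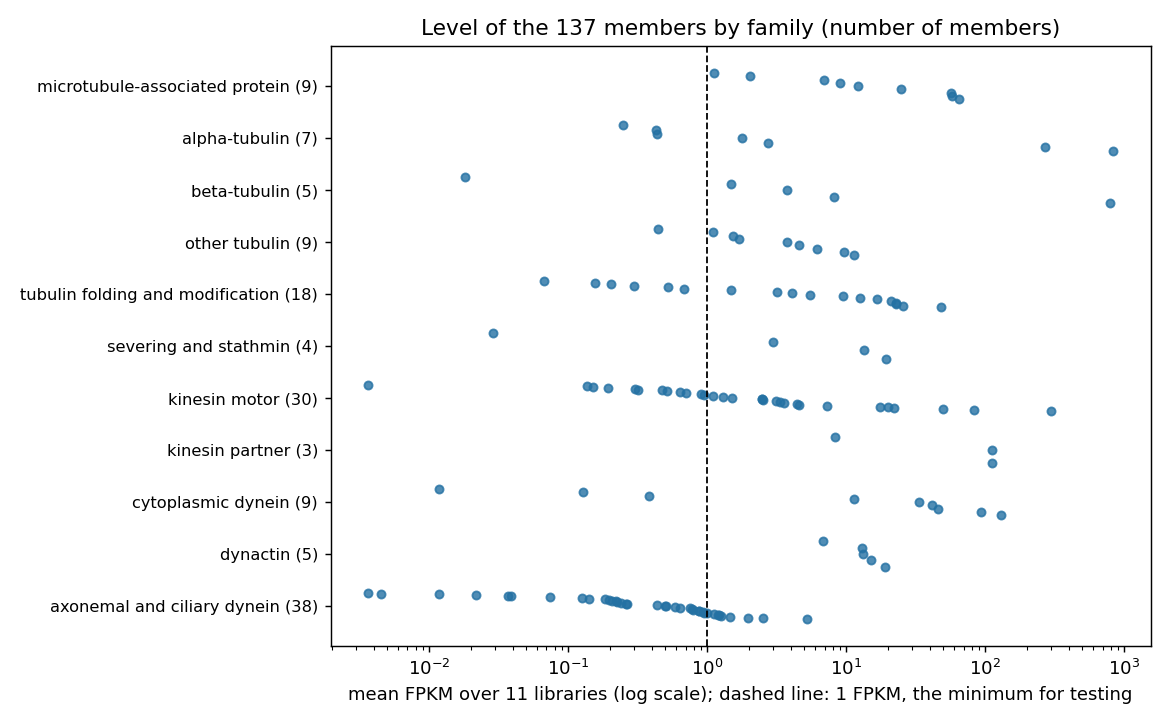
Mean FPKM over 11 libraries (log axis) of each of the 137 members, grouped by family, with a dashed line at 1 FPKM. Tubulin alpha-1 (835 FPKM) and beta-1 (786 FPKM) lie highest, and 30 of 38 axonemal and ciliary dynein genes lie under the line.

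At day 10, 17 members were lower than before exposure and none was higher. They included 4 microtubule-associated proteins, 4 kinesin motors, 2 kinesin partners, 2 cytoplasmic dynein chains, 3 tubulin-modifying genes, a beta-tubulin of low level and spastin. The largest change was that of futsch, whose mean was 29.6 ± 9.28 FPKM at day 10 (SD, n = 2), against 88.0 ± 3.75 FPKM before exposure (SD, n = 3). The calls came from limma on log2(FPKM + 1) fitted to all 7830 genes that averaged 1 FPKM or more, at a Benjamini-Hochberg adjusted p under 0.05. The 17 were 21.2% of the 80 members tested, beside 16.9% of all genes called lower in the same comparison, so the members' share lay near the background. The counts per family at day 10 that follow stand beside the same 16.9%, and no family was tested against it. The 0 members called higher stood beside 2.22% of all genes, and at an unadjusted p under 0.05 limma gave 31 lower and 1 higher, against 28.6% and 5.01% of all genes. Both day 10 libraries lay below all 3 libraries from before exposure in 38 members (47.5%), against 38.3% of all genes, and above them in 5 (6.25%), against 9.74%.

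The median gene shifted too. Over all genes tested the median log2 change at day 10 was −0.18, and each log2 change that follows is set against that median, with its standard error, while the p-values test the values as deposited. On that relative scale the members' median was −0.12, and 52 of 80 members lay below the median gene. The calls gathered among abundant members: 13 of 23 with a mean of at least 20 FPKM were called lower (56.5%, against 30.1% of all genes at that level), 3 of 24 between 5 and 20 FPKM (12.5%, against 14.5%) and 1 of 33 below 5 FPKM (3.03%, against 4.26%). These classes of level were chosen after the values had been seen. Scaling the libraries by median of ratios left 6 members lower (7.5%, against 5.95% of all genes) and 0 higher (3.97% of all genes), and the 6 were futsch, microtubule-associated protein 2, kinesin 3B, Asator, Jupiter and the cytoplasmic dynein heavy chain. Without day 10 replicate 2 most calls were lost, among members as among all genes. The lone day 10 library left is then assumed to vary like the other groups. With the log2 of the summed FPKM of the royal jelly genes as a covariate (the gland covariate), no member was called, and 0 of all 7830 genes were. That sum was itself far apart between these groups, at 94231 to 126260 FPKM at day 10 against 4662 to 12863 before exposure. The fit therefore had little power to find a difference between them, and its lack of calls decides nothing.

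**Figure D2:**
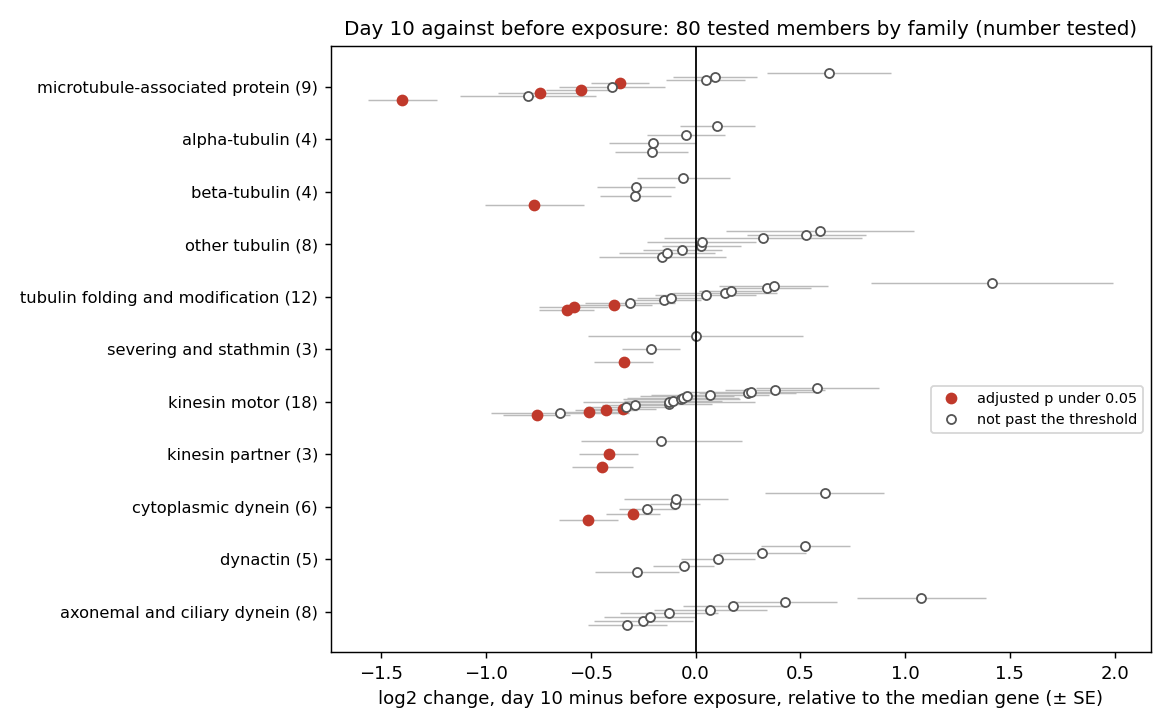
Log2 change at day 10 against before exposure, relative to the median gene, for the 80 members tested, by family. Points are genes, bars are standard errors, and filled red points have an adjusted p under 0.05. All 17 called members lie below 0, with futsch farthest at −1.40.

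Microtubule-associated proteins held the largest fall. Of the 9 members of this family, all tested, 4 were called lower at day 10, and their median relative log2 change was −0.40. In Drosophila, futsch is the relative of mammalian MAP1B and organises microtubules in axons and at synaptic endings. Futsch, LOC725131, had 22.99 and 36.11 FPKM in the day 10 libraries, against 92.13, 87.27 and 84.76 FPKM before exposure. The groups did not overlap, and the lowest library from before exposure lay far above both day 10 libraries. Relative to the median gene futsch fell by 1.40 on the log2 scale (± 0.16 SE, adjusted p = 0.00202). Its neighbour in name, LOC102655072 (futsch-like), had 5.23 and 11.09 FPKM at day 10, against 9.54, 13.39 and 13.33 FPKM before exposure, groups that overlapped, and it did not pass (−0.40 ± 0.25, adjusted p = 0.132).

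LOC409539, named microtubule-associated protein 2, had 27.59 and 46.57 FPKM at day 10, against 79.59, 64.77 and 63.24 FPKM before exposure, with no overlap (−0.74 ± 0.20, adjusted p = 0.0101). LOC551257, named for Jupiter, a microtubule-binding protein of Drosophila, had 13.49 and 19.21 FPKM at day 10, against 28.49, 26.93 and 26.53 FPKM before exposure, again apart (−0.55 ± 0.17, adjusted p = 0.0131). EB1 marks growing plus ends. LOC411371, the EB family member 1, had 38.09 and 49.9 FPKM at day 10, against 63.49, 65.11 and 62.77 FPKM before exposure (−0.36 ± 0.14, adjusted p = 0.0207). In both of these genes day 10 replicate 2 was the lowest library of all 11.

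The other members of the family did not pass. LOC409193, a microtubule-associated serine/threonine kinase, came closest (−0.80 ± 0.33, adjusted p = 0.0541). LOC411870, the light chain 3A gene whose product decorates autophagosomes, had 2.14 and 2.65 FPKM at day 10, against 1.04, 2.03 and 1.42 FPKM before exposure, apart but not past the threshold (0.64 ± 0.30, adjusted p = 0.306). The 2 echinoderm-type members were at 0.05 ± 0.19 and 0.09 ± 0.20. The family's summed level was 151 ± 40.3 FPKM at day 10 (SD, n = 2), against 283 ± 16.7 FPKM before exposure (SD, n = 3), and futsch, microtubule-associated protein 2 and EB family member 1 made up most of it.

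**Figure D3:**
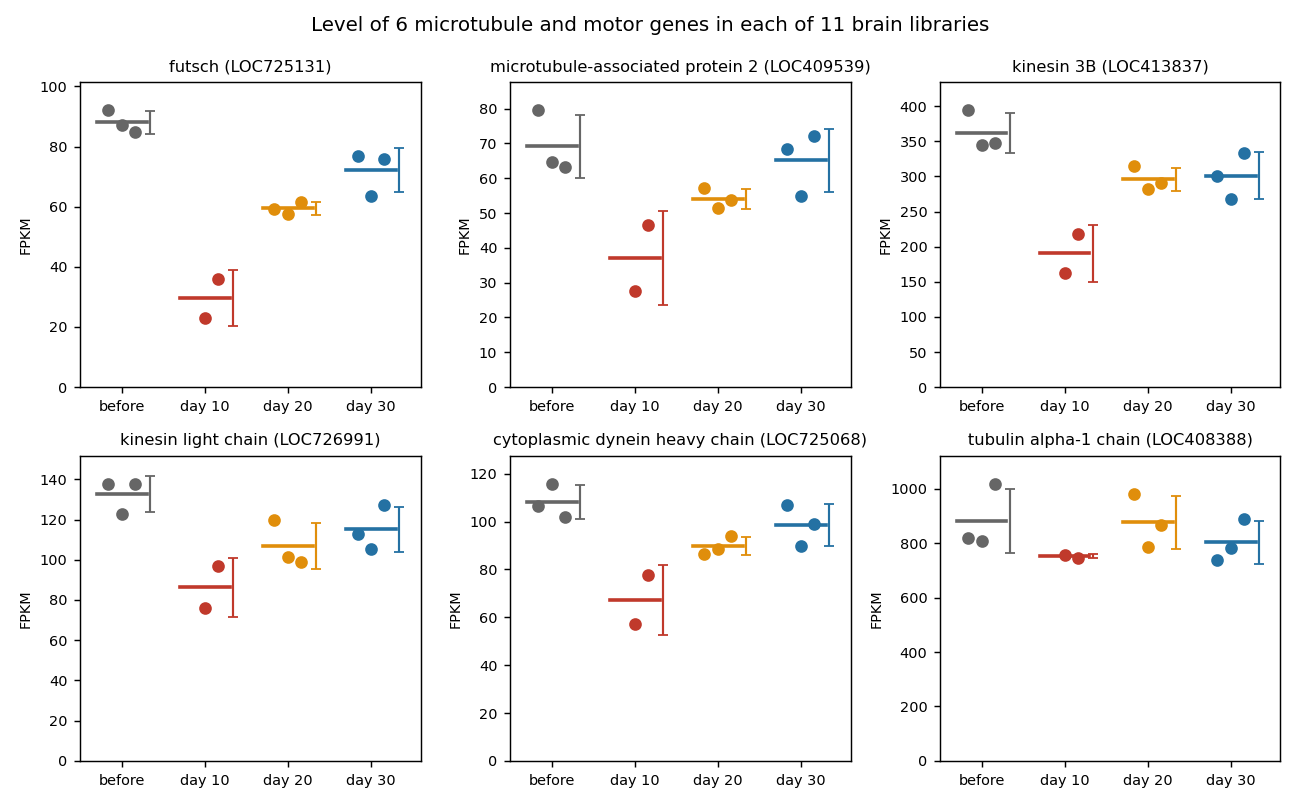
FPKM of 6 members in each of the 11 libraries, in panels from futsch to tubulin alpha-1, at before exposure, day 10, day 20 and day 30. Dots are libraries, lines are means and bars are SD. Futsch has 22.99 and 36.11 FPKM at day 10 and 57.4 to 61.65 FPKM at day 20, below 84.76 to 92.13 FPKM before exposure, while the alpha-tubulin groups lie closer together.

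Of the tubulins, none of the 4 alpha-tubulin genes tested passed, and 1 of 4 beta-tubulin genes did, beside 16.9% of all genes called lower. Counts in families this small say little beside that share. LOC408388, the most abundant alpha-1 chain, had 756.53 and 746.4 FPKM at day 10, against 820.19, 808.19 and 1018.25 FPKM before exposure. The groups did not overlap, yet the relative change was −0.05 ± 0.19 (adjusted p = 0.442). LOC408782, tubulin beta-1, had 627.96 and 663.67 FPKM at day 10, against 925.49, 793.13 and 967.06 FPKM before exposure, apart as well, and missed the threshold (−0.29 ± 0.17, adjusted p = 0.0747). LOC550827, the second alpha-1 gene, was at −0.21 ± 0.17 (adjusted p = 0.142).

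The beta-tubulin that passed was a minor one. LOC410996 had 2.36 and 2.24 FPKM at day 10, against 6.28, 4.3 and 5.68 FPKM before exposure, with no overlap (−0.77 ± 0.24, adjusted p = 0.0175). In RefSeq's Amel_HAv3.1 gene order it stands in a row with 2 more beta-tubulin genes, LOC100577548 and LOC410994, of 1.48 and 8.26 FPKM, so that the division of reads between similar copies is uncertain. LOC410994 was at −0.28 ± 0.18 (adjusted p = 0.102) and LOC100577548 at −0.06 ± 0.22 (adjusted p = 0.497). Of 8 further tubulins and gamma-tubulin complex genes, which seed new filaments or belong to centrioles, 0 passed, and their median was 0.03. The most abundant, LOC411508 (tubulin gamma-2 chain), averaged 11.4 FPKM and was at 0.03 ± 0.26 (adjusted p = 0.738).

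Of 12 tested genes that fold or modify tubulin, 3 were called lower. LOC411575, homologue of the Drosophila tau-tubulin kinase Asator, had 29.9 and 36.98 FPKM at day 10, against 64.83, 55.58 and 55.07 FPKM before exposure (−0.61 ± 0.13, adjusted p = 0.00568). The polyglutamylase gene LOC414032 (TTLL5) had 13.16 and 18.44 FPKM at day 10, against 30.84, 25.5 and 25.29 FPKM before exposure (−0.58 ± 0.17, adjusted p = 0.0106). LOC413213, a TTLL4 gene, had 4.2 and 4.97 FPKM at day 10, against 7.57, 6.41 and 7.85 FPKM before exposure (−0.39 ± 0.18, adjusted p = 0.0485). The groups were apart in all 3. LOC413213 lies beside LOC724379, which carries the same TTLL4 description, at 1.48 FPKM, and reads shared between the copies cannot be divided with certainty.

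None of the folding genes passed. The chaperones of tubulin assembly, LOC725630 (cofactor A) at 0.14 ± 0.25, LOC726139 (cofactor B) at 0.37 ± 0.26, LOC724928 (cofactor C) at 0.34 ± 0.21 and LOC725910 (cofactor D) at −0.15 ± 0.17, had adjusted p-values of 0.937, 0.653, 0.64 and 0.211. LOC726664, the alpha-tubulin acetyltransferase gene, was at 0.17 ± 0.15 (adjusted p = 0.972). LOC552804, a cofactor E-like gene, had 7.69 and 5.87 FPKM at day 10, against 2.51, 5.42 and 0.56 FPKM before exposure, apart but widely spread, and did not pass (1.42 ± 0.58, adjusted p = 0.155).

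Severing genes were of modest level. LOC409576, spastin, had 13.66 and 16.37 FPKM at day 10, against 22.66, 22.62 and 20.44 FPKM before exposure, with no overlap (−0.34 ± 0.14, adjusted p = 0.0242). The katanin regulatory subunit p80, LOC410348, lay at −0.21 ± 0.14 (adjusted p = 0.0691), and LOC413966, a katanin p60-like gene, at −0.00 ± 0.51 (adjusted p = 0.85).

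The kinesin motors that passed were among the abundant ones. Of 18 tested, 4 were called lower, each with a mean of at least 19.9 FPKM, and the median of the 18 was −0.12. LOC413837, kinesin 3B, had 162.07 and 218.7 FPKM at day 10, against 394.6, 344.47 and 346.96 FPKM before exposure, far apart (−0.76 ± 0.16, adjusted p = 0.00594). LOC409727 (kinesin 13) had 13.44 and 18.16 FPKM at day 10, against 28.89, 23.17 and 25.63 FPKM before exposure (−0.51 ± 0.16, adjusted p = 0.0139). LOC413170 (kinesin 3D) had 13.12 and 15.95 FPKM at day 10, against 22.82, 22.05 and 22.71 FPKM before exposure (−0.43 ± 0.15, adjusted p = 0.0162). LOC409676 (kinesin 2A) had 30.62 and 42.47 FPKM at day 10, against 50.95, 55.53 and 50.74 FPKM before exposure (−0.35 ± 0.16, adjusted p = 0.0364). Groups did not overlap in any of the 4.

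Conventional kinesin walks as heavy chains that bind cargo through light chains, and the gene for its motor subunit did not pass. LOC411769, kinesin heavy chain, had 53.81 and 72.77 FPKM at day 10, against 85.9, 92.8 and 81.99 FPKM before exposure, apart, at −0.29 ± 0.16 (adjusted p = 0.0633). LOC726991, kinesin light chain, had 76.01 and 96.65 FPKM at day 10, against 137.67, 122.6 and 137.77 FPKM before exposure (−0.44 ± 0.15, adjusted p = 0.0136). In Drosophila, milt, or milton, links mitochondria to kinesin. The bee gene LOC410101 had 74.9 and 96.88 FPKM at day 10, against 137.81, 126.26 and 123.26 FPKM before exposure (−0.42 ± 0.14, adjusted p = 0.0153). The light chain and milt differed from the heavy chain in passing the threshold, and the difference between these changes was not tested.

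The remaining kinesins gave no call. LOC412711 (kinesin 2B) lay at −0.33 ± 0.19 (adjusted p = 0.0894) and LOC725890 (kinesin F) at −0.65 ± 0.33 (adjusted p = 0.0994). LOC551999, kinesin-associated protein 3, the non-motor subunit of kinesin-2, spread from 4.71 to 12.33 FPKM before exposure, had 5.43 and 5.47 FPKM at day 10, and lay at −0.16 ± 0.39. LOC100577649, named for Klp61F, the spindle kinesin of dividing Drosophila cells, averaged 2.49 FPKM and lay at −0.07 ± 0.28.

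Cytoplasmic dynein gave 2 calls among 6 tested chains. LOC725068, the heavy chain, had 57.06 and 77.6 FPKM at day 10, against 106.49, 115.8 and 101.91 FPKM before exposure (−0.51 ± 0.14, adjusted p = 0.00905). LOC413409, the intermediate chain, which ties the motor to dynactin, had 25.18 and 27.39 FPKM at day 10, against 37.29, 35.11 and 38.58 FPKM before exposure (−0.30 ± 0.13, adjusted p = 0.0233). Neither pair of groups overlapped. LOC725312, light chain D, had 97.01 and 109.18 FPKM at day 10, against 126.61, 140.55 and 143.97 FPKM before exposure, also apart, at −0.23 ± 0.14 (adjusted p = 0.0531). LOC726176, the roadblock light chain, had 50 and 42.02 FPKM at day 10, against 20.34, 45.4 and 40.73 FPKM before exposure, which overlapped (0.62 ± 0.29, adjusted p = 0.311).

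None of the 5 dynactin subunits passed, where 14.5% of all genes with means of 5 to under 20 FPKM were called lower, and their median was 0.11. LOC413931, dynactin subunit 1, the large subunit that grips the microtubule, had 8.38 and 12.16 FPKM at day 10, against 13.04, 16.46 and 13.48 FPKM before exposure (−0.28 ± 0.20, adjusted p = 0.134). LOC412267, dynactin subunit 2, had 18.42 and 16.35 FPKM at day 10, against 12.18, 15.91 and 12.52 FPKM before exposure (0.52 ± 0.21, adjusted p = 0.283). Subunit 1 lay lower and subunit 2 higher with no overlap in either gene, and neither passed. The most abundant subunit, LOC725207 (dynactin subunit 4), lay at −0.06 ± 0.15 (adjusted p = 0.292).

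Of the 8 axonemal and ciliary dynein genes above 1 FPKM, 0 passed at day 10. Of all genes with means of 1 to under 5 FPKM only 4.26% were called lower. LOC411197, the axonemal light chain 1 gene, was at −0.25 ± 0.24 (adjusted p = 0.232). LOC412759, dynein regulatory complex protein 8, had 1.23 and 2.42 FPKM at day 10, against 0.24, 0.52 and 0.72 FPKM before exposure, the groups apart, and came closest (1.08 ± 0.31, adjusted p = 0.0599). At these levels a small number of reads can move a value, and the depth of the libraries is unknown.

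Genes around the members were read from lists chosen by description. Of 50 other microtubule and transport genes, 43 were tested, 13 were called lower (30.2%, against 16.9% of all genes) and 0 higher (against 2.22%) at day 10, with a median of −0.08. The list holds spectrins and many genes matched by the word ankyrin. LOC406139, ankyrin-3, an anchor of the membrane skeleton, fell (−0.73 ± 0.18, adjusted p = 0.00799). LOC408869, the homologue of lissencephaly-1, a regulator of cytoplasmic dynein, had 20.21 and 31.87 FPKM at day 10, against 56.23, 45.36 and 43.79 FPKM before exposure (−0.72 ± 0.19, adjusted p = 0.00905). Of 20 cilium genes tested and 24 genes of mitosis, 0 were called by limma in either list, beside the same shares of all genes. Their medians were 0.12 and 0.14. Most of these genes lay below 5 FPKM, and only 4.26% of all genes with means of 1 to under 5 FPKM were called lower. In lists of this size 0 calls therefore says little. At an unadjusted p under 0.05, 1 gene of the cilium list was lower and 0 higher, and 2 genes of the mitosis list were lower and 1 higher. The gene lower in the cilium list was LOC409680 (tubby-related protein 4), matched by the word tubby. The gene higher in the mitosis list was LOC551963 (protein spindle-F), matched by the word spindle. A matched word does not show that a gene acts in cilia or in mitosis.

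By days 20 and 30 no member differed from before exposure past the threshold, and neither did any other gene (0% called in each direction by limma). At day 20, 9 members were lower and 0 higher at an unadjusted p under 0.05, 11.2% and 0% of the members against 8.61% and 1.28% of all genes. At day 30, 2 were lower and 2 higher at that level, where 4.28% and 2.9% of all genes were. All 3 day 20 libraries lay below all libraries from before exposure in 19 members (23.8%), against 18.9% of all genes, and all 3 day 30 libraries did so in 5 (6.25%), against 7.02%, while they lay above in 0, against 3.37% of all genes. These 3 comparisons share the libraries from before exposure.

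Values of the members with the smallest p are given without a call. Futsch had 59.25, 57.4 and 61.65 FPKM at day 20 and 76.96, 63.65 and 75.73 FPKM at day 30, all below the 84.76 FPKM that was the lowest value before exposure. Its relative change was −0.45 ± 0.15 at day 20 (adjusted p = 0.307) and −0.32 ± 0.15 at day 30 (adjusted p = 0.71). The beta-tubulin LOC410996 had 3.05, 2.48 and 2.14 FPKM at day 20, below 4.3 to 6.28 FPKM before exposure (−0.74 ± 0.21, adjusted p = 0.28), and 5.48, 4.38 and 2.95 FPKM at day 30, a range that overlapped it.

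The TTLL4 gene LOC413213 stood below its level before exposure on each exposed day. It had 4.21, 4.58 and 5.22 FPKM at day 20 (−0.43 ± 0.16, adjusted p = 0.341) and 4.63, 6.17 and 4.75 FPKM at day 30 (−0.45 ± 0.16, adjusted p = 0.571), against 6.41 to 7.85 FPKM before exposure. Asator, LOC411575, had 48.05, 47.78 and 47.27 FPKM at day 20 (−0.17 ± 0.12, adjusted p = 0.454) and 47.06, 44.13 and 52.03 FPKM at day 30 (−0.32 ± 0.12, adjusted p = 0.619), against 55.07 to 64.83 FPKM before exposure. Kinesin light chain, LOC726991, lay at −0.20 ± 0.13 at day 20 (adjusted p = 0.454). In futsch, LOC413213, Asator, kinesin 3B (LOC413837) and the alpha-tubulin LOC412886 the groups were apart on all 3 exposed days. Kinesin 3B had 281.81 to 314.47 FPKM at day 20 and 267.75 to 334.03 FPKM at day 30, against 344.47 to 394.6 FPKM before exposure. These are the 5 members whose day 30 libraries all lay below, and the share of all genes apart on all 3 days was not counted. Only day 10 changes passed, and LOC412886 passed on no day. At day 30 dynein regulatory complex protein 8, LOC412759, lay at 0.75 ± 0.28 (adjusted p = 0.5), tubulin epsilon, LOC411226, at 0.42 ± 0.21 (adjusted p = 0.696), and light chain 3A, LOC411870, at 0.53 ± 0.26 (adjusted p = 0.702), each with overlapping libraries.

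**Figure D4:**
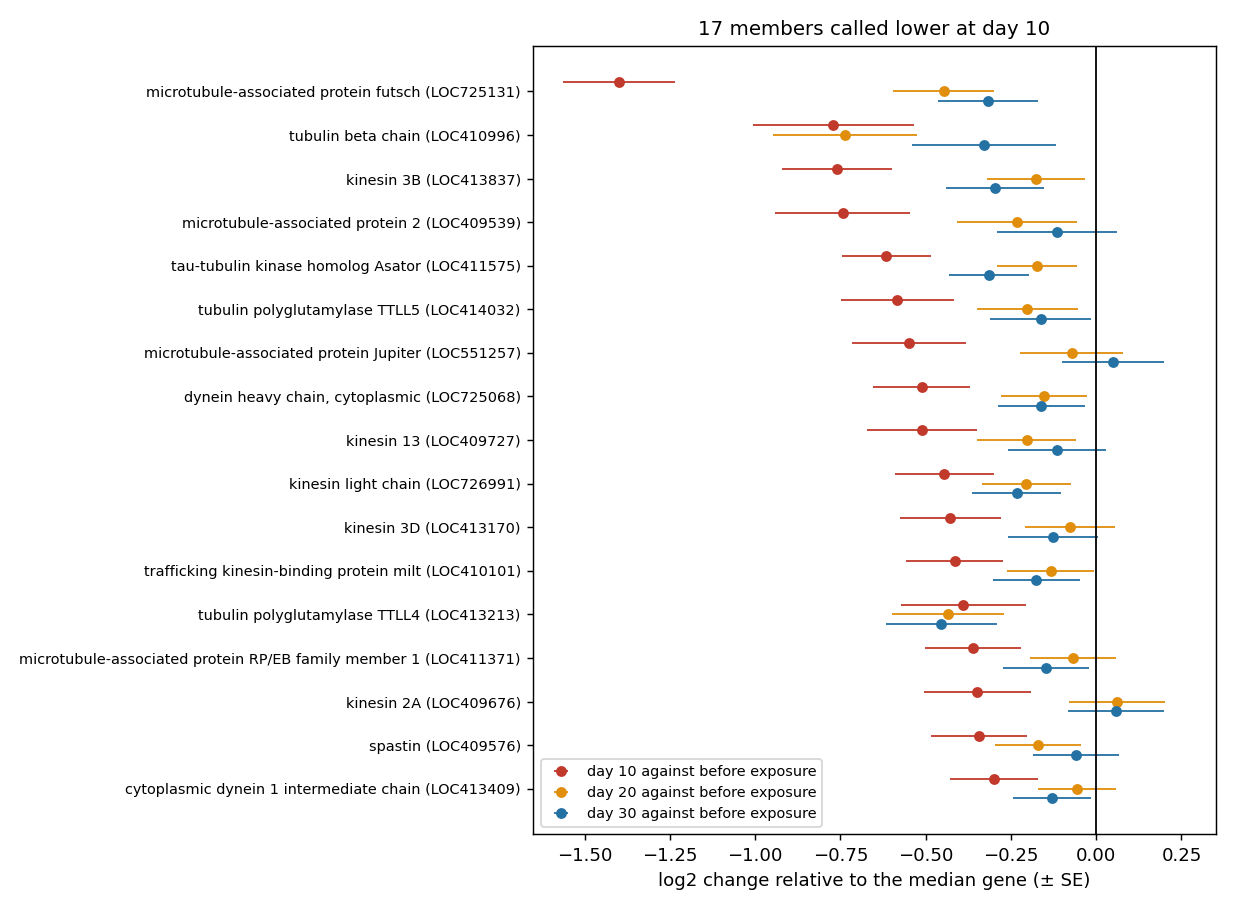
Log2 change relative to the median gene at days 10, 20 and 30, each against before exposure, for the 17 members called lower at day 10. Bars are standard errors, and the 3 days share the same libraries from before exposure. Futsch lies at −1.40, −0.45 and −0.32 on the 3 days, and no change at day 20 or day 30 passed the threshold.

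The exposed days were also set against each other. Between day 20 and day 10, futsch was the only member that changed, 1 of 80 (1.25%), beside 0.0255% of all genes called higher and 0.0766% called lower. It was higher at day 20, with 59.25, 57.4 and 61.65 FPKM against 22.99 and 36.11 FPKM at day 10 (0.93 ± 0.16, adjusted p = 0.0439). This call was lost without any of the 3 day 20 libraries, without before-exposure replicate 2 or 3 and without day 30 replicate 1 or 3. In those settings 0 to 10 of all 7830 genes were called. Leaving out a day 10 library leaves a lone one. Without day 10 replicate 2 the call was lost, and without replicate 3 more calls were made, among members as among all genes. Futsch passed in 7 of 21 alternatives, and those that lost it included the gland covariate, no filter on low genes, a pseudocount of 0.1, only the compared groups and rescaling without royal jelly genes. Median-of-ratios scaling left 1 member called higher and 0 lower, beside 0.0894% and 0.319% of all genes. At an unadjusted p under 0.05, 17 members were higher at day 20 than at day 10 (21.2%) and 1 lower (1.25%), against 15.6% and 5.17% of all genes. All day 20 libraries lay above both day 10 libraries in 30 members (37.5%), against 28.5% of all genes. Between day 30 and day 20 no member passed in limma, where 0% of all genes did, and at an unadjusted p under 0.05 there were 5 higher and 1 lower at day 30, against 5.7% and 0.728% of all genes.

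Day 30 differed from day 10 in 13 members, all higher at day 30 (16.2% of the 80), beside 9.41% of all genes called higher and 1.37% called lower. At an unadjusted p under 0.05, 26 members were higher and 1 lower (32.5% and 1.25%), against 26.0% and 3.58% of all genes. The 13 comprised 4 microtubule-associated proteins, 4 kinesin motors, 2 tubulin-modifying genes, spastin, the cytoplasmic dynein heavy chain and LOC412230, an axonemal heavy chain 3 gene. Futsch had 76.96, 63.65 and 75.73 FPKM at day 30, against 22.99 and 36.11 FPKM at day 10 (1.07 ± 0.16, adjusted p = 0.0114). Futsch-like, LOC102655072, had 17.21, 14.86 and 12.67 FPKM at day 30, against 5.23 and 11.09 FPKM at day 10 (0.65 ± 0.25, adjusted p = 0.0479). All day 30 libraries lay above both day 10 libraries in these genes, as they did in 40 members (50%), against 37.6% of all genes.

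Microtubule-associated protein 2, LOC409539, had 68.4, 55.02 and 72.18 FPKM at day 30, against 27.59 and 46.57 FPKM at day 10 (0.62 ± 0.20, adjusted p = 0.0313). Jupiter, LOC551257, had 32.51, 24.7 and 30.01 FPKM at day 30, against 13.49 and 19.21 FPKM at day 10 (0.59 ± 0.17, adjusted p = 0.0264). LOC412230 lay at 0.45 ± 0.19 (adjusted p = 0.0441), and kinesin 3B, LOC413837, at 0.45 ± 0.16 (adjusted p = 0.0322). With median-of-ratios scaling futsch was the only member of the 13 that passed, beside 0.179% of all genes called higher and 0.524% lower. Without day 10 replicate 2, which leaves a lone day 10 library, the calls were lost among members and all genes alike. Without day 30 replicate 1 there was 1 call (15 of all 7830 genes called in either direction). Without day 30 replicate 3 there were 0 (0 of all genes), and without day 30 replicate 2 there were 20 (1240 of all genes). The count also fell without libraries of groups outside the comparison, which share its estimate of the spread. It fell to 5 without before-exposure replicate 2 (473 of all genes called). It was 4 without before-exposure replicate 3 (406) or without day 20 replicate 1 (450) or 2 (371), and 3 without day 20 replicate 3 (313).

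Levels summed over a family showed which genes carried most of the RNA, and these sums were not tested. Summed kinesin motors averaged 613 ± 27.9 FPKM before exposure, 371 ± 80.5 at day 10, 527 ± 23.9 at day 20 and 563 ± 61.3 at day 30 (SD, n = 3, 2, 3 and 3). Cytoplasmic dynein averaged 378 ± 28.0, 293 ± 21.4, 354 ± 15.4 and 375 ± 46.4 FPKM at the same times, and dynactin 67.1 ± 5.39, 63.7 ± 2.50, 61.9 ± 0.786 and 76.1 ± 16.3 FPKM. Alpha-tubulin averaged 1197 ± 156 FPKM before exposure, 990.3 ± 9.01 at day 10, 1150.0 ± 110.3 at day 20 and 1060.0 ± 116.3 at day 30, and beta-tubulin 912 ± 93.0, 656 ± 26.5, 791 ± 69.8 and 792 ± 25.7 FPKM. Mean sums were lowest at day 10 for both tubulins, the motors and cytoplasmic dynein, while dynactin was lowest at day 20.

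Ratios within a library do not depend on how libraries are scaled, and they show only unequal change of their terms. Futsch stood at 0.427 and 0.496 of kinesin heavy chain in the day 10 libraries, against 1.07, 0.94 and 1.03 before exposure, and the groups did not overlap. It stayed below the ratio before exposure at day 20, at 0.696, 0.697 and 0.781, and at day 30, at 0.714, 0.836 and 0.812. Kinesin 3B stood at 3.01 and 3.01 times the heavy chain at day 10, against 4.59, 3.71 and 4.23 times before exposure, also apart. It too stayed below at day 20, at 3.69, 3.42 and 3.69 times, and at day 30, at 2.79, 3.52 and 3.58 times. Kinesin light chain over heavy chain was 1.41 and 1.33 at day 10, against 1.6, 1.32 and 1.68 before exposure, which overlapped, as did the dynein heavy chain over its intermediate chain, at 2.27 and 2.83 at day 10 against 2.86, 3.3 and 2.64 before exposure. Summed alpha-tubulin over summed beta-tubulin was 1.54 and 1.48 at day 10, against 1.16, 1.38 and 1.4 before exposure, with no overlap. At day 20 it was 1.46, 1.44 and 1.46, apart as well, and at day 30 it was 1.25, 1.31 and 1.45, which overlapped. No test was made on the ratios.

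**Figure D5:**
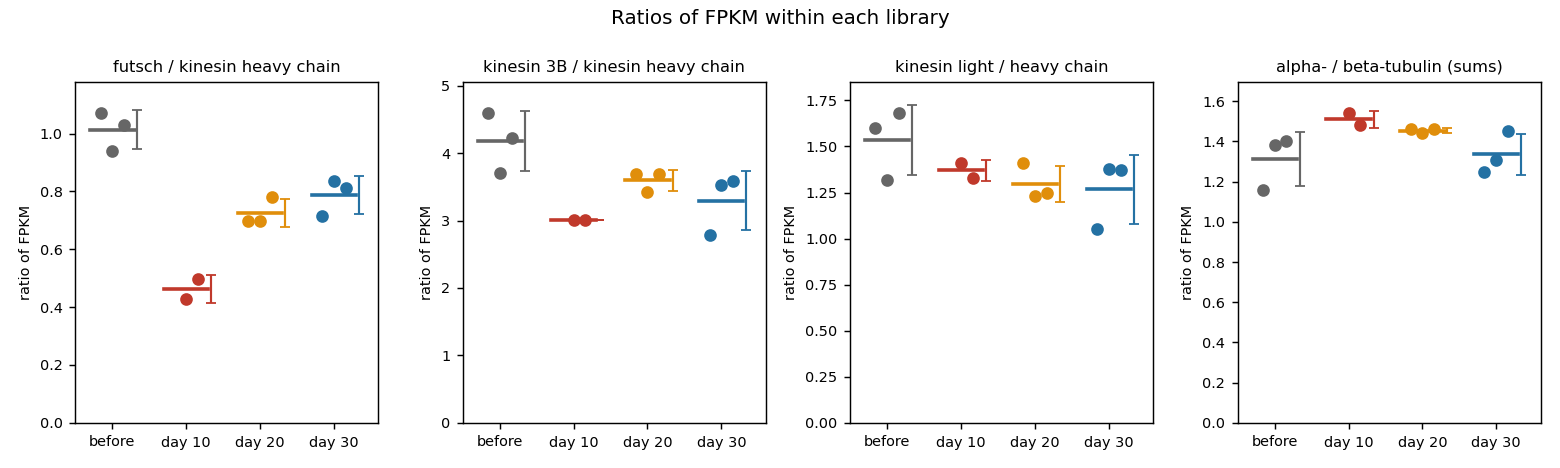
Ratios of FPKM within each of the 11 libraries for 4 pairs: futsch, kinesin 3B and kinesin light chain, each over kinesin heavy chain, and summed alpha-tubulin over summed beta-tubulin. Dots are libraries and lines are means. The ratio of futsch to kinesin heavy chain is 0.427 and 0.496 at day 10 and lies between 0.94 and 1.07 before exposure.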

How the data were processed

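Messenger RNA of honeybee brain was measured in 11 libraries on an Illumina HiSeq instrument, per the labels' protocols. The authors deposited FPKM per gene and library, per the file headers, with 2 decimals. Per the submitters' processing notes the tools were StringTie, HISAT2 2.1.0 and fastp 0.18.0, with no role stated. Genome build, annotation and strand use were not given in the sources used, so overlapping genes may share reads. The table has 1 more FPKM column that was not used. Since low values showed no steps that would mark whole reads, library depth could not be recovered and errors come only from the spread between libraries. The FPKM of a library summed to between 264416 and 468358.

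Members were found by description, and families by words in it: ciliary and regulatory-complex dynein genes and dynein assembly factors were put with the axonemal ones. The members and lists were chosen with earlier results of these data known. All 137 members matched the RefSeq table of Amel_HAv3.1, which served only to find neighbouring genes.

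Calls came from limma 3.58.1 (R 4.3.3) with a mean-variance trend, run on log2(FPKM + 1), a scale that understates changes of low genes. The 7830 genes that averaged 1 FPKM or more were tested in a single model of the 4 group means over all 11 libraries (7 residual degrees of freedom). Benjamini-Hochberg adjustment ran over all genes of a comparison, and calls were made under 0.05. The procedure was tested on simulated data. Named are futsch, the 10 most abundant members, the most abundant of each family, up to 12 called members with a mean of at least 5 FPKM per day against before exposure (or else the 5 smallest p) and up to 5 between exposed days. Other named members were chosen after their values were seen, and 1 gene of the other transport genes that the rule names is not reported here. The alternatives were other pseudocounts, filters and scalings, rescaling without royal jelly genes, a gland covariate, a replicate block, only the compared groups, and leaving out each library.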

Additional observations from a re-analysis of the deposited data

Results flagged for a closer look

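The change from before exposure differed between exposed days in 13 members, by the limma comparison of those days themselves, which is the difference of their changes because both share the libraries from before exposure. Values here are log2 differences as deposited. Futsch, LOC725131, was 1.02 higher at day 20 than at day 10 and 1.29 higher at day 30 than at day 10. The other microtubule-associated proteins that differed between day 30 and day 10 were futsch-like, LOC102655072, by 0.86, microtubule-associated protein 2, LOC409539, by 0.83, and Jupiter, LOC551257, by 0.80. The kinesins were kinesin 3B, LOC413837, by 0.67, kinesin 2A, LOC409676, by 0.61, kinesin 13, LOC409727, by 0.60, and kinesin 3D, LOC413170, by 0.51. The others were TTLL5, LOC414032, by 0.63, Asator, LOC411575, by 0.51, spastin, LOC409576, by 0.49, the cytoplasmic dynein heavy chain, LOC725068, by 0.56, and the axonemal heavy chain 3, LOC412230, by 0.67. All were higher at day 30. The median gene was 0.21 higher at day 30 than at day 10 and 0.09 higher at day 20 than at day 10. Groups of 2 or 3 libraries are too small for a test of single libraries that stand apart.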

How the results depend on the processing

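Over 21 alternatives and 26 named members in 6 comparisons, 3022 of 3252 values kept direction and side of the threshold, 200 no longer passed, 30 newly passed and 0 reversed. Of 126 counts of called members, 90 stayed within 1.5 times. The losses were 59 for day 10 against before exposure, 14 for day 20 against day 10 and 127 for day 30 against day 10. In the other 3 comparisons no setting called a member, so nothing there could be lost. The totals therefore overstate how stable the calls were. Calls over all genes moved with the counts of members. For day 10 against before exposure, 17 members became 0 with the gland covariate (0% of all genes lower) and 6 with median of ratios (5.95%). They became 9 with quantile scaling (7.01%), 11 with only the compared groups (9.66%) and 29 after rescaling without royal jelly genes (27.6%). Leaving out single libraries other than day 10 gave 12 to 22 (11.1% and 18.7% of all genes lower). Without day 10 replicate 2, which leaves a lone day 10 library, most calls were lost. For day 20 against day 10, the 1 call was lost (0) with no filter or a pseudocount of 0.1 (0 of all genes called). Rescaling without royal jelly genes (1 gene called), the replicate block (6), the gland covariate (16) and only the compared groups (56) lost it too. Leaving out single libraries other than day 10 gave 0 or 1 (0 to 75 genes). For day 30 against day 10, 13 members became 0 with the gland covariate (5 of all genes called) or only the compared groups (15). They became 1 with median of ratios (55) or quantile scaling (150), 8 with no filter (501) and 4 with the replicate block (414). Leaving out single libraries other than day 10 gave 0 to 20 (0 to 1240 genes). The other 3 comparisons gave 0 without any single library. Causes of these moves were not tested. Royal jelly levels at day 10 did not overlap those of any other group, so fits with the gland covariate had little power for comparisons with day 10. The log2 changes of futsch that follow are not set against the median gene, and on that scale the main fit gave −1.58 at day 10. Futsch at day 10 against before exposure passed in 20 of 21 alternatives (log2 −1.89 to −1.19), the exception being the gland covariate (−1.19, adjusted p = 0.484). It passed in 7 of 21 for day 20 against day 10 and in 17 of 21 for day 30 against day 10. The replicate block left 16 members lower at day 10 (13.7% of all genes were), 15 of them shared with the 17. Same-numbered libraries correlated between −0.24 and 0.31 in their deviations from group means. Between day 30 and day 10 both same-numbered pairs reached 0.31, with 4 of 5 libraries best with their own number. In the comparisons with 3 pairs at most 2 of 6 were. The 2 day 10 libraries deviate from their mean as mirror images, with 0.313 and −0.313 against day 30 replicate 2. Their agreements are therefore not independent. The labels give no meaning to the numbers, and no comparison with 3 pairs had every correlation over 0.1, so whether libraries are paired stays undecided. The 2 day 10 libraries and unknown depth limit precision.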
